A study of Mus musculus with 16 samples.

Results

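A set of 10 genes of the inflammasome and the IL-1 family was followed through spinal cord RNA sequencing of 16 mice: the cytokines Il1a, Il1b and Il18, the receptor antagonist Il1rn, the inflammatory caspases Casp1, Casp4 and Casp12, the sensors Nlrp3 and Naip2, and the adaptor Pycard. They were chosen by name for their place in this pathway, from 24411 genes in all, with earlier results of these data known. All 10 passed the level required for testing, a mean above 1 TPM (transcripts scaled to gene length and library depth) in at least 1 condition, as did 16091 genes of the series. All mice were female C57BL/6J. In 14 of them, at 12 weeks of age, the thoracic cord was compressed to a 0.25 mm gap, and from 2 weeks after injury 7 were given atorvastatin, a statin that inhibits HMG-CoA reductase, at 10 mg/kg daily for 4 weeks (SCI + Atorvastatin), while 7 were given the DMSO, PEG400, Tween 80 and saline carrier (SCI + Vehicle). The other 2 mice were not injured and were given no drug (Uninjured Control). By the methods of the study their cords were taken at a younger age than those of the SCI mice. The SCI mice also had a laminectomy and daily intraperitoneal injections, and the methods describe neither for the Uninjured Control mice. Age, surgery, injections and injury therefore cannot be told apart in the comparisons with Uninjured Control. RNA came from 5 mm of whole cord, collected 6 weeks after injury in the SCI mice, so every value is an average over all cells of the segment.

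Inflammasomes are cytosolic complexes that assemble when a sensor such as NLRP3 or a NAIP protein meets a danger signal or a bacterial protein. NLRP3 recruits the adaptor ASC, the product of Pycard, which clusters and activates caspase-1; caspase-1 cleaves pro-IL-1β and pro-IL-18 into their active forms and opens gasdermin D pores that release them and can kill the cell. Caspase-11, the product of mouse Casp4, senses intracellular lipopolysaccharide and cleaves gasdermin D directly, IL-1α acts without caspase-1 cleavage, and IL-1Ra, the product of Il1rn, blocks the IL-1 receptor. In injured cord these genes are best known from microglia, infiltrating macrophages and neutrophils. The assay here measured RNA only, so neither cleavage nor release of any of these proteins was observed.

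The libraries held 14823292 to 25579826 counts on genes, and the shallowest was 1 SCI + Vehicle mouse. Markers of the labelled tissue were present: 7 oligodendrocyte genes summed to at least 13191 CPM (counts scaled to library depth, here with the trimmed mean of M-values, TMM) and 7 neuron genes to at least 4680 CPM in every mouse. Both Uninjured Control libraries stood apart. They had counts on 12732 and 12356 genes against 16399 to 19338 in the SCI mice, and 7 liver genes summed to 663 and 4004 CPM in them against 0.795 to 6.53 CPM in the SCI mice. The part of these features in the comparisons with Uninjured Control was not tested.

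Casp1, Casp4 and Casp12 lie in tandem on the plus strand of chromosome 9 (GRCm38, GENCODE M21), at 5298517 to 5307265, 5308828 to 5336783 and 5345430 to 5373032, with 1562 bases between the first pair and 8646 between the second. Pycard lies on chromosome 7 and Naip2 on chromosome 13, both on the minus strand. The starts of these 5 genes are shown because Casp12, Pycard and Naip2 were the members with the smallest p-values between the treatments, and Casp1 and Casp4 are the neighbours of Casp12. Each runs, on the gene's strand, from 250 bases before the RefSeq start to 10 bases after it (build GRCm38.p6). Capitals mark a loose form of the NF-κB motif (GGG and CC with 5 bases of any kind between them) and GAGGAA, a form of the PU.1 motif, on either strand.
Casp1, chr9:5298267-5298526, plus strand: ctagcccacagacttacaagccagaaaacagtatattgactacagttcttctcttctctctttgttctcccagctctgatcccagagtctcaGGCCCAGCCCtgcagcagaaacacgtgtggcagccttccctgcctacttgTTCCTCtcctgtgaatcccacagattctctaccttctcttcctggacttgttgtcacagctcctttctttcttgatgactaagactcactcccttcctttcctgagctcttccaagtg
Casp4, chr9:5308599-5308858, plus strand: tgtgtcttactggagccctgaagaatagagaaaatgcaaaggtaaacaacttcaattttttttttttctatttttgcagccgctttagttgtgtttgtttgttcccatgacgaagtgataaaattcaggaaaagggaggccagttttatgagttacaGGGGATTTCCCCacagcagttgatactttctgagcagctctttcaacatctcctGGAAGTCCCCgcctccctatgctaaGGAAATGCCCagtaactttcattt
Casp12, chr9:5345226-5345485, plus strand: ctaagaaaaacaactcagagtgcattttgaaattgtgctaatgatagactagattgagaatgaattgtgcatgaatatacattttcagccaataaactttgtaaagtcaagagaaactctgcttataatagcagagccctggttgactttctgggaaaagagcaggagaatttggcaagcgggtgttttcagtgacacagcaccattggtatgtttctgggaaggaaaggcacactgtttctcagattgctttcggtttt
Pycard, chr7:127993858-127994117, minus strand: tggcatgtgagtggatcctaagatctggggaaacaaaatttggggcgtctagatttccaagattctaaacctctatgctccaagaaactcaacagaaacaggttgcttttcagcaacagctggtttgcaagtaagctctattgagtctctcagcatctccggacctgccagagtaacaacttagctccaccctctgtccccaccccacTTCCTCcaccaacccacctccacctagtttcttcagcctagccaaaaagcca
Naip2, chr13:100202113-100202372, minus strand: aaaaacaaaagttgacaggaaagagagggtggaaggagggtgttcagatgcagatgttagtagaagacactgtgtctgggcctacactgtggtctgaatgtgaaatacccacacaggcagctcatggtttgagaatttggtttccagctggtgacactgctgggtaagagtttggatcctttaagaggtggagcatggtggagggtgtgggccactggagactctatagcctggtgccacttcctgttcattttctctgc
The search covered 250 bases before to 50 after the start, and Casp4 was searched at the first of its listed starts here. Casp1 held 1 match to the NF-κB form, at position -158 from the start, and 1 to GAGGAA, at -108. Casp4 held 5 matches to the NF-κB form, of which those at -93, -92 and -91 overlap and are 1 run, and none to GAGGAA. Pycard held 1 match to GAGGAA, at -42. Casp12 and Naip2 held neither, and among the remaining members this was also so for Il1b and Il18. Counting every listed start, the members had 14 promoters, since Il1rn, Casp4 and Nlrp3 are listed with more than 1 start, and windows of Il1rn and of Casp4 overlap. The NF-κB form was in 8 of these 14, beside 50.8% of 32851 promoters, and GAGGAA in 4 of 14, beside 28.3%. These are letter matches and show no binding.

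Among the 14 SCI mice, the ordering of the members by TPM, which corrects for gene length, put Il18 first at 17.7 ± 7.81 (SD, n = 14) and Pycard next at 16.5 ± 4.16. Casp12 followed at 12.3 ± 2.97 and Naip2 at 11.5 ± 2.04. Casp1 stood at 7.57 ± 1.54, Casp4 at 5.05 ± 3.17 and Nlrp3 at 4.25 ± 1.83. The IL-1 ligands and their antagonist were lowest, with Il1a at 3.99 ± 2.73, Il1rn at 3.31 ± 1.75 and Il1b at 2.38 ± 1.78. Neighbours in this order mostly did not differ beyond their spread: Il18 was above Pycard in 9 of 14 mice, Casp12 above Naip2 in 9, and Nlrp3 above Il1a in 7. The step from Naip2 down to Casp1 was seen in 13 of 14 mice. For Il1a the deposited TPM and counts did not keep 1 ratio: CPM per TPM differed by up to 13.99-fold between SCI mice, against 4.15-fold for Il1b, 3.98-fold for Casp4 and at most 2.28-fold for the other members, so the place of Il1a in the order is the least certain.

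The comparison of SCI + Vehicle with Uninjured Control asks which of these genes differ between chronically injured, vehicle-treated cord and uninjured, untreated cord. Of the 10 members, 5 rose (Il1a, Il1b, Il1rn, Nlrp3 and Naip2) and 0 fell, by an adjusted p below 0.05 and a change above 25%, in edgeR's quasi-likelihood test. Over all genes tested, 29.4% were called in either direction and 19.8% were called up and 9.55% down. The same number of members, 5 of 10, rose in SCI + Atorvastatin vs. Uninjured Control and 0 fell, where 38.9% of all genes were called and 24.9% were called up. Both comparisons used the same 2 control mice, so their values are given side by side and are not independent. The median log2 fold change of the members was 3.32 in the first and 3.78 in the second, beside 0.17 and 0.21 over all genes tested. With members at 0 in both controls set against 3 counts per control library, the member medians were 3.06 and 2.96. In whole tissue, more cells of a type and more RNA per cell cannot be told apart.

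Naip2, a sensor that binds bacterial type III secretion proteins and passes the signal to NLRC4, had 0 counts in both Uninjured Control mice. It had 263 to 557 counts in the SCI + Vehicle mice (median 460) and 453 to 691 in the SCI + Atorvastatin mice (median 560). No SCI mouse came near 0. Set against 3 counts per control library, Naip2 was 137-fold higher with vehicle and 171-fold higher with atorvastatin. The edgeR fit, which used no such floor, gave adjusted p = 1.82e-05 and 4.05e-06. The floor allows for counting alone and is no bound on the fold: Casp4 had 136 counts in 1 control and 0 in the other. Naip2 is 1 of several near-identical mouse Naip copies, and reads shared between them make the assignment to this copy uncertain. Of the genes that, like Naip2, averaged between 200 and 600 counts over the SCI mice, 4.68% were at 0 in both controls.

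Nlrp3, the sensor that responds to potassium efflux and many danger signals, had 13 counts in Uninjured Control mouse 1 and 0 in mouse 2. The SCI + Vehicle mice had 31 to 249 (median 143) and the SCI + Atorvastatin mice 99 to 288 (median 219), so the groups did not overlap with the controls. The log2 fold change was 4.29 (SE 1.29, adjusted p = 0.0293) with vehicle and 4.74 (SE 1.19, adjusted p = 0.0102) with atorvastatin. Without control mouse 2 these values were 3.29 and 3.73. With control mouse 1 left out the remaining control was at 0, and the fitted values, 10.2 and 10.6, depend on the prior count. The vehicle value lost its call when SCI + Vehicle mouse 2, 3, 5 or 6 was left out, with an adjusted p of 0.0518 to 0.0568.

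The IL-1 receptor ligands and their antagonist had 0 counts in both Uninjured Control mice. Il1a had 9 to 99 counts with vehicle (median 45) and 9 to 78 with atorvastatin (median 35). Il1b had 12 to 92 counts with vehicle (median 35) and 12 to 54 with atorvastatin (median 29). Il1rn had 30 to 159 counts with vehicle (median 60) and 43 to 122 with atorvastatin (median 71). Every SCI mouse had counts on all 3 genes, although Il1a and Il1b were at only 9 and 12 counts in the lowest mice.

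Set against the same 3 counts per control library, Il1a was 16.7-fold higher with vehicle and 11.4-fold higher with atorvastatin (edgeR adjusted p = 0.00617 and 0.00219). Il1b was 13.7-fold and 8.55-fold higher (edgeR adjusted p = 0.00551 and 0.00283). Il1rn was 21.3-fold and 21.9-fold higher (edgeR adjusted p = 0.00217 and 0.000263). These folds are no bounds either. Zeros were frequent at these levels in the control libraries: of genes averaging between 20 and 50 counts over the SCI mice, as Il1a and Il1b did, 65.6% were at 0 in both controls, and of those between 50 and 100, as Il1rn, 47.3% were. The plot of counts in each Uninjured Control mouse against the SCI mice shows the members among the other pathway genes.

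**Figure D1:**
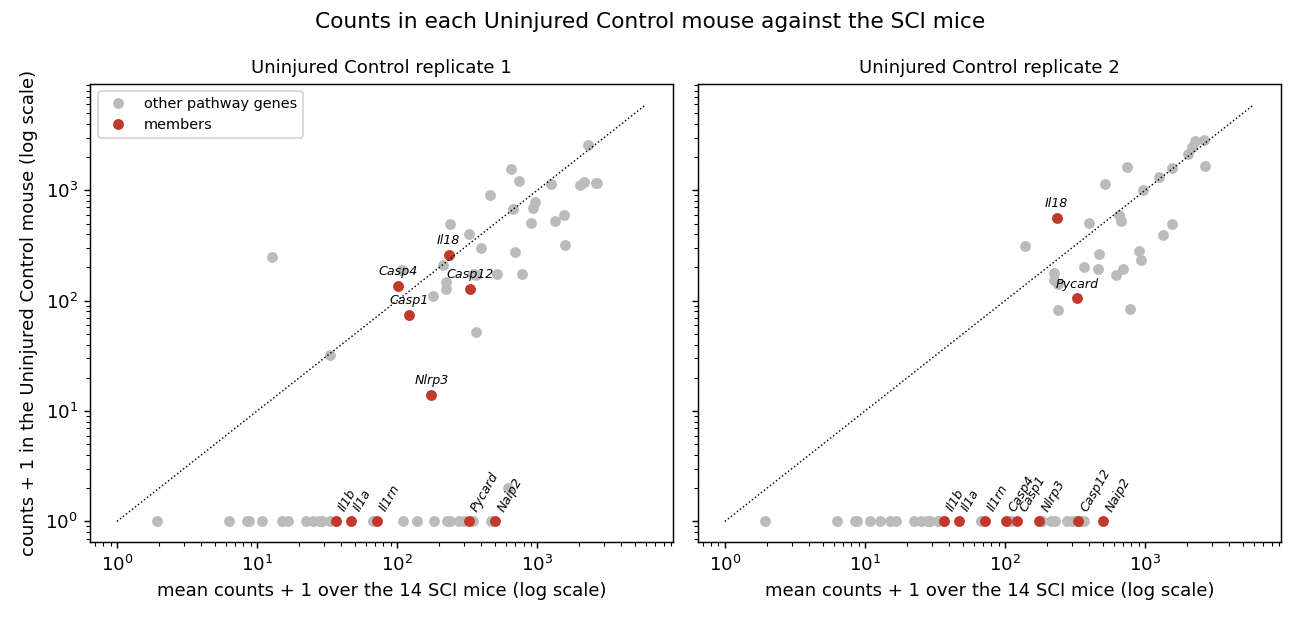
Counts + 1 in Uninjured Control mouse 1 (left) and mouse 2 (right) against the mean counts + 1 over the 14 SCI mice, both on log scales, with 1 point per gene for the 10 members (red) and the other pathway genes (grey); the dotted line marks equal counts. Il1a, Il1b, Il1rn and Naip2 lie on the bottom line, at 0 counts, in both mice, and 5 further members lie there in 1 mouse only.

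The caspases were not called against Uninjured Control in either comparison, and the 2 control mice disagreed on all 3. Casp1 had 73 and 0 counts in the controls, 40 to 249 with vehicle (median 120) and 101 to 157 with atorvastatin (median 110). Casp4 had 136 and 0 counts in the controls, 25 to 148 with vehicle (median 87) and 68 to 194 with atorvastatin (median 101). Casp12 had 126 and 0 counts in the controls, a median of 258 with vehicle (lowest 167) and a median of 411 with atorvastatin (lowest 313). A 0 in 1 control only was frequent at these levels. It was seen in 41.5% of genes averaging between 100 and 200 counts over the SCI mice, as Casp1 and Casp4 did. Between 200 and 600 counts, where Casp12 lay, it was seen in 18.6%.

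Casp12, whose product is an endoplasmic reticulum caspase related to caspase-1, was above both controls in all 14 SCI mice, with a log2 fold change of 1.86 (SE 1.19, adjusted p = 0.268) with vehicle and 2.502 (SE 1.17, adjusted p = 0.118) with atorvastatin. Casp1 had a log2 fold change of 1.58 (adjusted p = 0.378) and 1.48 (adjusted p = 0.354). Without control mouse 2, whose count of both genes was 0, Casp12 was at 0.86 and 1.49 and Casp1 at 0.58 and 0.47, and without control mouse 1 the fitted values were 11.004 and 11.7 for Casp12 and 9.94 and 9.87 for Casp1. Casp4 had 0.19 (adjusted p = 0.935) and 0.54 (adjusted p = 0.766), and its CPM in control mouse 1, 6.84, was above that of all 7 SCI + Vehicle mice and of 6 SCI + Atorvastatin mice. The deposited TPM of Casp12 and of Il18 were listed at 0 in control mouse 1 although the count table had 126 and 259 counts there.

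Pycard, the ASC adaptor, had 0 and 104 counts in the controls, 180 to 350 with vehicle (median 258) and 310 to 477 with atorvastatin (median 371). All 14 SCI mice were above both controls. Its log2 fold change was 2.35 (SE 1.18, adjusted p = 0.162) with vehicle and 2.82 (SE 1.14, adjusted p = 0.0750) with atorvastatin, so neither was called. Without control mouse 1, which had 0 counts, these were 1.35 and 1.82, and without mouse 2 the fitted values were 11.1 and 11.6. Il18 had the opposite sign. It had 259 and 558 counts in the controls, or 13.03 and 25.3 CPM, against 5.25 to 17.0 CPM with vehicle (median 12.1) and 5.83 to 15.4 CPM with atorvastatin (median 8.61). The highest SCI mice overlapped with the lower control, and the log2 fold change was -0.77 (SE 0.449, adjusted p = 0.226) and -0.997 (SE 0.390, adjusted p = 0.0670). On log2(TPM + 1), where control mouse 1 is listed at 0, this sign turned, to 1.06 in both comparisons. Bco2 and Tex12 overlap Il18 on the opposite strand, Gm14023 overlaps Il1a and Il1bos overlaps Il1b. Whether the counting used strand is not given in the sources used here, so reads of such pairs may not be told apart.

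The member values against Uninjured Control turned on those 2 mice. With 1 control left out a single mouse stands for the group, so only fold changes are given for those fits. With voom and group weights 0 members were called in either comparison, although 1 and 2 members had an unadjusted p below 0.05. Of all 16091 genes, 132 and 145 were called in that setting, so the 0 is no result about the members. The summed CPM of 19 microglia or macrophage genes was 297 and 368 in the controls, 2730 to 4090 with vehicle and 3231 to 5157 with atorvastatin. Of the 19, 15 rose with vehicle and 16 with atorvastatin, 1 was at 0 in both controls, and their part in the result was not tested. Neutrophil genes summed to 26.1 and 104 CPM in the controls, 76.8 to 318 with vehicle and 82.9 to 234 with atorvastatin, and 5 of these 11 genes were at 0 in both controls.

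**Figure D2:**
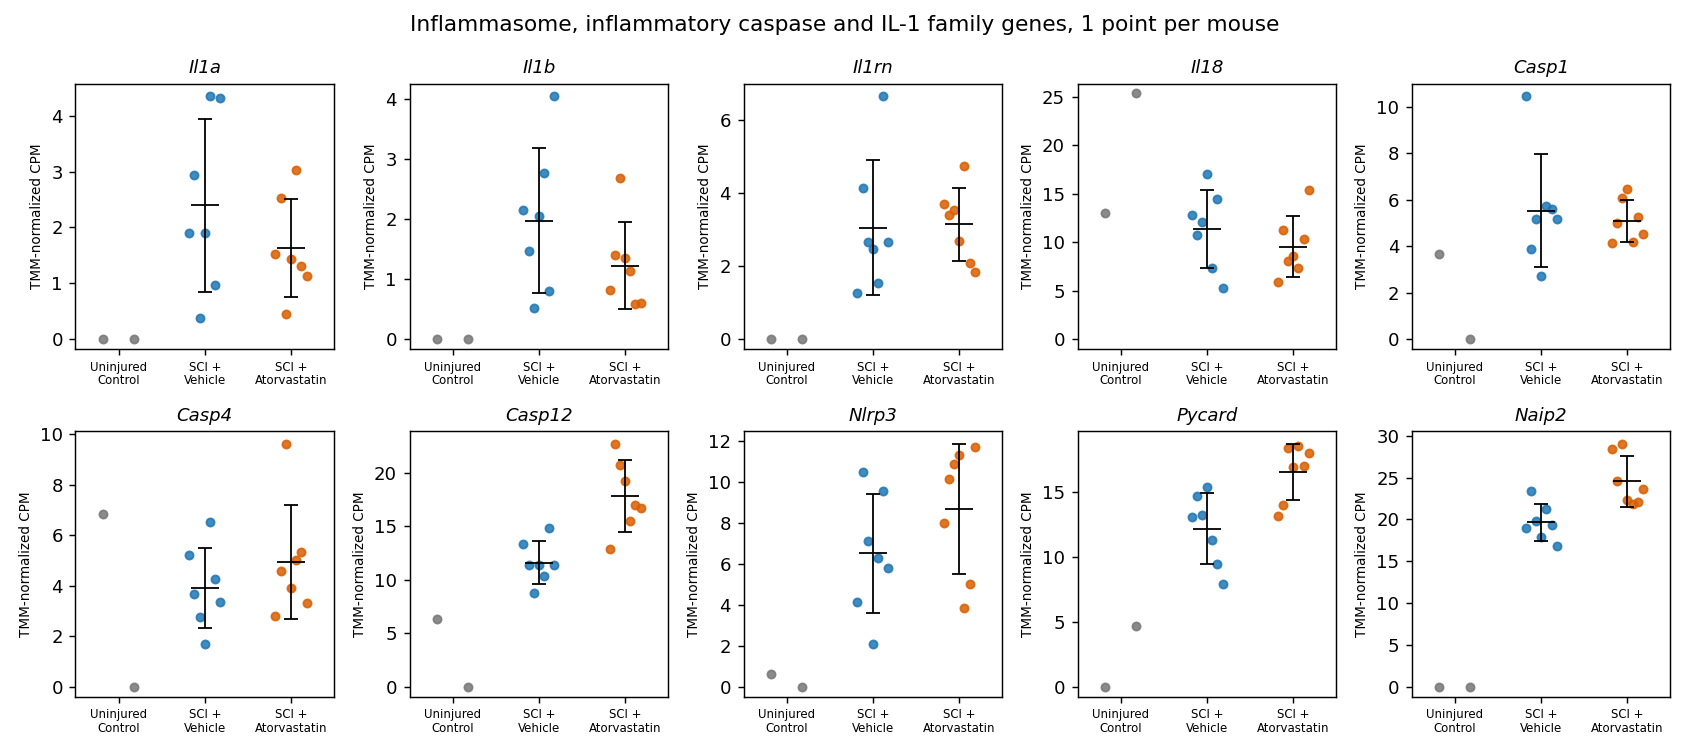
TMM-normalized CPM of the 10 members by group, with 1 point per mouse and, for the SCI groups of 7 mice, the mean and SD as bars; the vertical scale differs between panels. Both Uninjured Control mice sit at 0 for Il1a, Il1b, Il1rn and Naip2, and 1 of them does for Casp1, Casp4, Casp12, Nlrp3 and Pycard, while Il18 is highest in a control mouse.

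A further 63 genes of the pathway were taken from lists, of which 58 were in the files and 45 passed the level for testing. With vehicle, 16 of 45 were called against Uninjured Control, 14 up and 2 down, and with atorvastatin 20 of 45, 18 up and 2 down. Over all genes tested, 29.4% and 38.9% were called in either direction, near the shares of the list. The shares called up, 19.8% and 24.9%, were below those of the list. No set test was run, so the counts are taken as no result about the pathway and the following genes are described singly. Among the other sensors, 3 of 8 rose in each comparison: Aim2, which binds cytosolic DNA, Naip5, which binds flagellin, and Nlrp1b, the target of anthrax lethal factor. All 3 had 0 counts in both controls. Their means were 12.0, 13.6 and 7.54 CPM with vehicle and 14.7, 16.8 and 8.42 CPM with atorvastatin. Naip5 is another of the similar Naip copies.

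Of 9 triggers and regulators tested, P2rx7, the ATP-gated channel upstream of NLRP3, rose by a log2 fold change of 2.33 with vehicle (adjusted p = 0.00119) and 2.58 with atorvastatin (adjusted p = 0.000225). Cflar, which encodes the caspase-8 inhibitor cFLIP, rose by 1.80 and 1.91. Brcc3, a deubiquitinase of NLRP3, fell by 0.99 and 1.12 on the log2 scale. Nek7, the kinase that licenses NLRP3, had log2 fold changes of 0.14 (adjusted p = 0.588) and 0.27 (adjusted p = 0.303). Gsdmd, which encodes the pore protein gasdermin D, was not called either, at 1.61 (adjusted p = 0.374) and 1.97 (adjusted p = 0.216).

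Among the receptors and decoys, 3 of 5 rose in each comparison. Il1rap, the shared accessory chain of the IL-1 receptor, had a log2 fold change of 1.08 with vehicle (adjusted p = 0.0184) and 1.04 with atorvastatin (adjusted p = 0.00982). Il1rl2, the IL-36 receptor, and Sigirr, an inhibitory member of the family, had 0 counts in both controls and means of 1.20 to 3.40 CPM in the SCI groups. Il1r1, the signalling receptor itself, was not called, at 1.74 (adjusted p = 0.292) and 1.85 (adjusted p = 0.235). Il33, the IL-1 family alarmin expressed by oligodendrocytes and astrocytes, was not called, at 0.36 (adjusted p = 0.288) and 0.23 (adjusted p = 0.487). Of 13 genes that carry the signal from the receptor, 4 rose with vehicle and 5 with atorvastatin, with Irak4, Nfkb1, Traf6 and Tab2 up in both and Tollip, an inhibitor, down by 0.40 with atorvastatin.

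The comparison of SCI + Atorvastatin with SCI + Vehicle asks which genes differed with the drug. Casp12 was the only member called higher, by an unadjusted p below 0.001 and a change above 25%, and 0 were called lower. Over all genes tested, 0.106% passed these limits, 0.0870% higher and 0.0186% lower. Of the 10 members, 3 (Casp12, Pycard and Naip2) had an unadjusted p below 0.05, all higher with atorvastatin, where 7.03% of all genes had one. No member had an adjusted p below 0.05. The median log2 fold change of the members was 0.18, beside -0.0014 over all genes.

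Casp12 ranged from 8.74 to 14.8 CPM with vehicle (median 11.4) and from 12.9 to 22.7 CPM with atorvastatin (median 17.0). The means were 11.6 ± 1.97 and 17.8 ± 3.33 CPM (SD, n = 7 each), and the lowest atorvastatin mouse overlapped with the highest vehicle mice. The log2 fold change was 0.62 (SE 0.153, 95% interval 0.30 to 0.94, edgeR p = 0.000610, adjusted p = 0.680), and an exact permutation test of log2 CPM, added after the values were seen, gave p = 0.00175. The call was lost when SCI + Atorvastatin mouse 2, 3 or 4 or SCI + Vehicle mouse 2, 3, 4, 5 or 7 was left out, with the log2 fold change at 0.55 to 0.68 over all 14 mice left out in turn. Of all 16091 genes, 5 to 31 were called in the left-out fits that lost it, beside 17 in the main fit. The Casp12 call was also lost with all 3 groups in 1 fit, with limma on log2(TPM + 1) and with voom and group weights. The log2 fold changes there were 0.62, 0.47 and 0.60, and 1, 20 and 8 of all genes were called. The call was kept with DESeq2, with edgeR on DESeq2 size factors and with no filter, where 37, 17 and 19 of all genes were called.

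Pycard ranged from 7.94 to 15.4 CPM with vehicle (median 13.1) and from 13.1 to 18.6 CPM with atorvastatin (median 17.0). The groups overlapped, and the log2 fold change was 0.45 (SE 0.158, 95% interval 0.12 to 0.78, edgeR p = 0.0102, adjusted p = 0.680, exact permutation p = 0.00758). Naip2 ranged from 16.8 to 23.4 CPM with vehicle (median 19.3) and from 21.8 to 29.1 CPM with atorvastatin (median 23.6). These groups overlapped through 1 vehicle mouse, and the log2 fold change was 0.32 (SE 0.117, 95% interval 0.077 to 0.56, edgeR p = 0.0124, adjusted p = 0.680, exact permutation p = 0.00408). Neither passed the limit set for this comparison.

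For the other 7 members the intervals included 0, and their width differed greatly. Il1b had 0.517 to 4.06 CPM with vehicle and 0.584 to 2.68 CPM with atorvastatin, and the 95% interval of its log2 fold change ran from -1.79 to 0.42. For Il1a it ran from -1.64 to 0.54 around an estimate of -0.55, which turned to 0.41 on log2(TPM + 1), and for Il1rn from -0.76 to 0.84. At these low counts a difference of -1 log2 unit lay within the intervals of Il1a and Il1b. The intervals were narrower for Casp1, from -0.68 to 0.43, and Il18, from -0.76 to 0.26. Nlrp3 had an estimate of 0.41 with an interval from -0.23 to 1.06, and Casp4 one of 0.33 with an interval from -0.35 to 1.01. Among the 45 further pathway genes 0 were called between the treatments, and 2 had an unadjusted p below 0.05, both higher with atorvastatin: Irak4, the first kinase of IL-1 receptor signalling (log2 fold change 0.44), and Txnip, a thioredoxin partner that can bind NLRP3 (0.41).

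**Figure D3:**
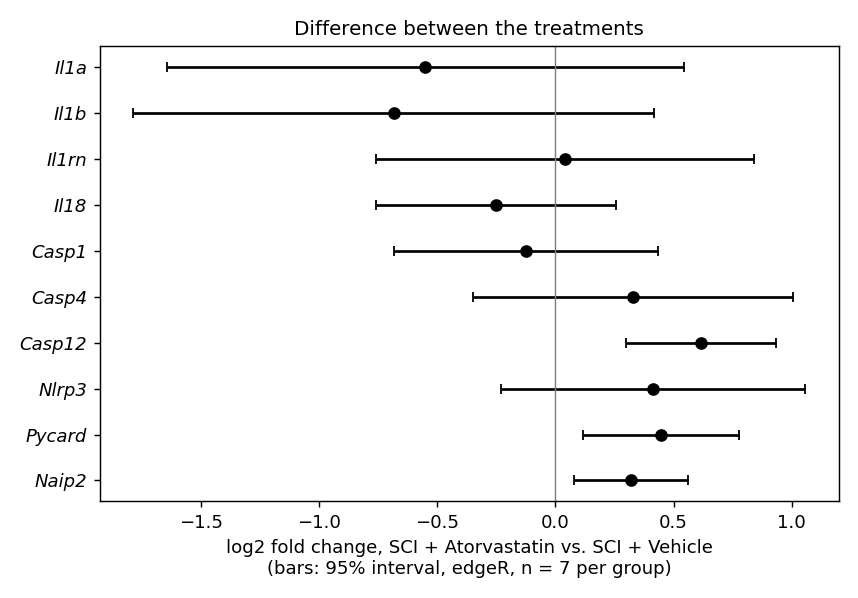
Log2 fold change of SCI + Atorvastatin vs. SCI + Vehicle for each member, with 95% intervals from edgeR (7 mice per group); the vertical line marks no difference. The intervals of Casp12 (0.30 to 0.94), Pycard and Naip2 lie above 0 and those of the other 7 members include it.

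Markers of other cells are given beside the difference in Casp12. All 6 fibroblast genes (Col1a1, Col1a2, Col3a1, Dcn, Lum and Pdgfra) had an unadjusted p below 0.05 and were higher with atorvastatin, with a median log2 fold change of 0.94 and 0 of them called. Their summed CPM was 177 to 1170 with vehicle (median 680) and 730 to 1968 with atorvastatin (median 1174). This sum differed by 1.05 on the log2 scale (exact permutation p = 0.0321, adjusted over 12 marker lists 0.361). No list passed an adjusted p of 0.05. Of 19 microglia or macrophage genes, 19 had a log2 fold change above 0 and 4 an unadjusted p below 0.05, with a median log2 fold change of 0.17 and 0 called, and their sum differed by 0.22 on the log2 scale (exact permutation p = 0.0903). The sum of 5 skeletal muscle genes reached 2827 CPM in 1 SCI + Atorvastatin mouse and 535 CPM in 1 SCI + Vehicle mouse, against medians of 13.6 and 8.12 CPM. All 7 neuron genes were lower with atorvastatin (median log2 fold change -0.15) and all 6 endothelium genes were higher (0.29), with 0 called in either list. The sums of these lists differed by -0.15 (exact permutation p = 0.159) and 0.20 (exact permutation p = 0.122) on the log2 scale. The part of all these markers in the result was not tested.

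Within the groups, after each group's mean was removed, Casp12 had a correlation with the fibroblast sum of r = 0.27 (permutation p = 0.347) and rho = 0.29 (permutation p = 0.306) over 14 mice, and r = 0.40 without the 2 mice farthest out in that sum. With the microglia or macrophage sum it was r = 0.44 (permutation p = 0.128) and rho = 0.35 (permutation p = 0.236). In all, 12 marker lists were compared in this way, after the values were seen. The sum of 7 neuron genes was the only one past adjustment, and only by rank, with rho = -0.72 (permutation p = 0.00275, adjusted over the 12 lists 0.0330) and r = -0.54 (permutation p = 0.0419, adjusted 0.272). Without the 2 farthest mice r was -0.73. Mice with more Casp12 RNA had less of the neuron genes within their group, in shares of the same library.

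**Figure D4:**
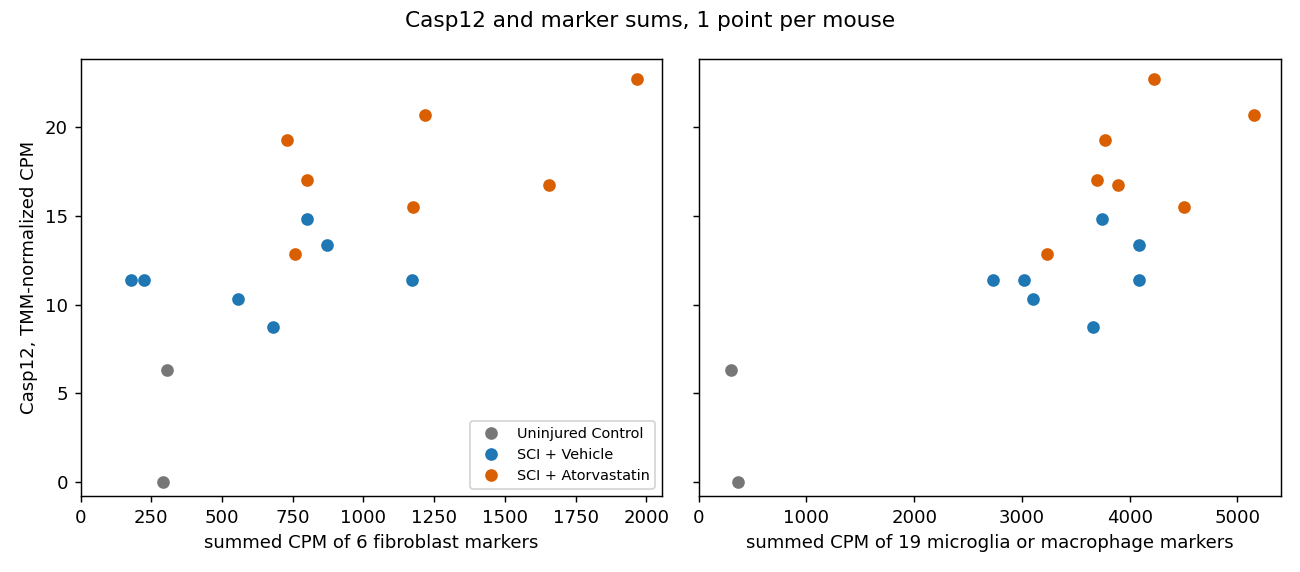
TMM-normalized CPM of Casp12 against the summed CPM of 6 fibroblast genes (left) and of 19 microglia or macrophage genes (right), with 1 point per mouse, coloured by group. In the left panel, 5 of 7 SCI + Vehicle mice and all 7 SCI + Atorvastatin mice exceed the higher control, 305 CPM, in the fibroblast sum, and the highest Casp12 value, 22.7 CPM, belongs to the mouse with the highest fibroblast sum.

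Ratios between members of the same mouse do not depend on library scaling. The log2 ratio of Casp12 to Casp1 counts ran from 0.35 to 2.05 with vehicle (median 1.14) and from 1.57 to 2.19 with atorvastatin (median 1.77). All 7 SCI + Atorvastatin mice were above the vehicle median, although the highest vehicle mouse lay within their range, and the mean difference was 0.65 (exact permutation p = 0.0152, adjusted over 3 ratios 0.0455). With 1 mouse left out at a time the adjusted p stayed below 0.05 in 2 of 14 cases, those without SCI + Vehicle mouse 2 or mouse 4, and was at most 0.0962 in the others. The ratio of Casp4 to Casp1 differed by 0.37 (exact permutation p = 0.160, adjusted 0.240), with overlapping groups.

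The ratio of the antagonist Il1rn to Il1b ran from -0.84 to 3.03 on the log2 scale with vehicle and from 0.39 to 2.14 with atorvastatin. In 3 vehicle mice there were fewer Il1rn than Il1b counts, and in 0 of the atorvastatin mice. The difference in mean was 0.76 (exact permutation p = 0.259), within the wide spread of the vehicle mice.

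**Figure D5:**
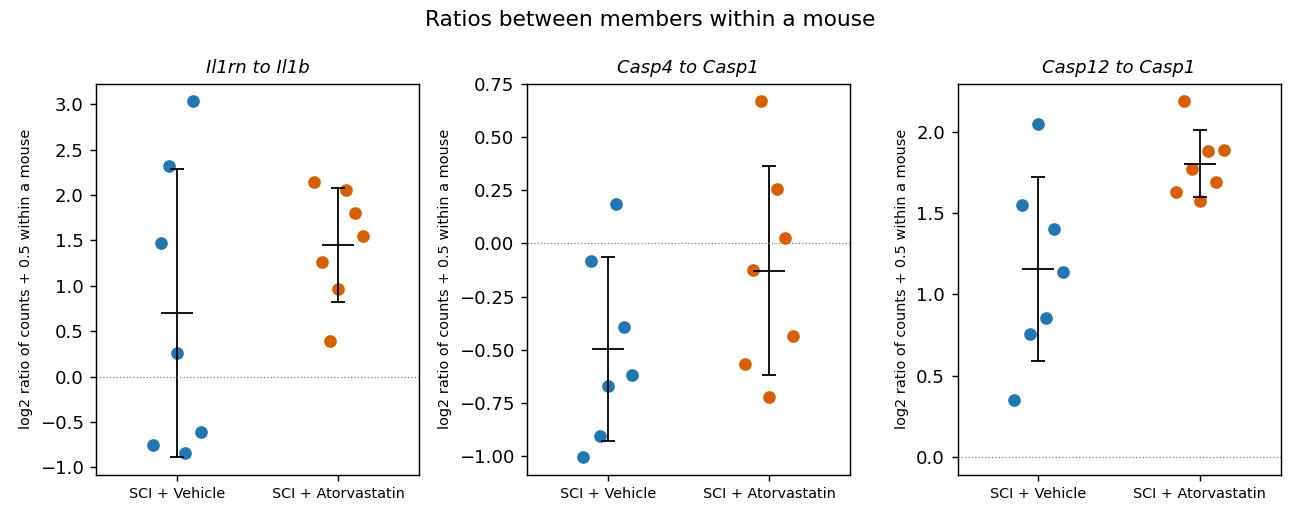
Log2 ratio of counts + 0.5 between members of the same mouse for Il1rn to Il1b, Casp4 to Casp1 and Casp12 to Casp1, with 1 point per mouse and the mean and SD of 7 mice per group; the dotted line marks equal counts. The SCI + Atorvastatin mice lie between 1.57 and 2.19 for Casp12 to Casp1, and the SCI + Vehicle mice between 0.35 and 2.05.

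Counted per 10000 counts of the 19 microglia or macrophage genes, Casp12 was at 23.9 to 41.7 with vehicle (median 33.3) and 34.4 to 53.8 with atorvastatin (median 43.0). On this scale it differed by 0.39 log2 units (exact permutation p = 0.0128 among 10 members compared), with 7 of 7 SCI + Atorvastatin mice above the vehicle median. Pycard differed by 0.25 (exact permutation p = 0.0921) and Naip2 by 0.10 (exact permutation p = 0.470). Il1b was lower by a mean of -0.81 log2 units (exact permutation p = 0.135), with 0 of 7 SCI + Atorvastatin mice above the vehicle median of 5.25 per 10000. In the Uninjured Control mice, where the denominator was small, Il18 stood at 438 and 688 per 10000, against 15.6 to 56.4 in the SCI mice. Control mouse 1 was also above every SCI mouse in Casp12, Casp4 and Casp1, at 213, 230 and 124 per 10000, where mouse 2 was at 0. For Pycard control mouse 2 was above every SCI mouse, at 128 per 10000 against at most 51.0, where mouse 1 was at 0.

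Relations were computed across the 14 SCI mice with group means removed. Of 55 relations, among the 10 members and with the microglia or macrophage sum, 0 passed an adjusted permutation p of 0.05 by Pearson's r or Spearman's rho, and 1 had an unadjusted Pearson p below 0.05. That pair was the neighbouring caspases Casp1 and Casp4, with r = 0.65 (permutation p = 0.0195, adjusted 0.794) and rho = 0.64 (permutation p = 0.0200, adjusted 0.778). Without the 2 mice farthest out in Casp1, r was 0.47. Without SCI + Atorvastatin mouse 3, 1 relation passed, that of Il1a with Il1b, at r = 0.88 (adjusted permutation p = 0.0374), where over all 14 mice it was r = 0.48 (permutation p = 0.112, adjusted 0.794) and rho = 0.52 (permutation p = 0.0832, adjusted 0.778). It was r = 0.20 without SCI + Vehicle mouse 3 and r = 0.76 without both of these mice, so it turned on single mice. Among the 45 pairs of members, 21 had r above 0 and 24 below it.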

How the data were processed

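RNA from the injured or matched cord segment was made into stranded total RNA libraries. Per the labels and the submitters' processing notes, reads were checked with FastQC 0.12.1, trimmed with Trimmomatic 0.38, aligned with STAR 2.5.4b to mm10 and quantified with RSEM 1.3.1. The authors deposited whole-number counts, with no normalization, and TPM, normalized for gene length and depth. The step behind the whole-number counts and their use of strand are not given in the sources used here. By counting alone, a count of 0 allows 3 counts of the library.

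The 16091 genes averaging over 1 TPM in any condition were tested in edgeR 4.0.16 (TMM, quasi-likelihood, each fit on its own 2 groups, with Benjamini-Hochberg adjustment). Limits were an adjusted p of 0.05 against Uninjured Control and an unadjusted p of 0.001 between treatments, with a log2 change above 0.322. Ratios, levels per marker count and correlations used two-sided permutation tests over mice, exact for ratios and levels (3432 assignments) and with 100000 resamples for the correlations. The per-marker-count test carries no adjustment over the members. Named genes are the members, and pathway and marker genes from written lists. The members and lists were chosen with earlier results of these data known, so p-values are not independent evidence. Each library was taken as 1 mouse. Alternatives used DESeq2 1.42.0, limma 3.58.1, other filters, the replicate number and each mouse left out. The fits were tried on counts simulated from the mean profile of the SCI mice. These lack the many zeros of the control libraries, so they give no assurance for the comparisons with Uninjured Control. Figures used matplotlib 3.10.9.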

Additional observations from a re-analysis of the deposited data

Results flagged for a closer look

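In all, 5 values stood far from the rest of their group by Dixon's test, among 46 groups of 7 mice tested, and chance alone marks about 1 in 20 groups. In SCI + Atorvastatin mouse 3, Il1b was at 2.68 CPM, and Casp4 was at 9.63 CPM and 14.8 TPM. In SCI + Vehicle mouse 1, Casp1 was at 10.5 CPM. In SCI + Vehicle mouse 6, Il1rn was at 7.79 TPM. None of these 5 values is of Casp12, Pycard or Naip2, but the Casp1 value enters the ratio of Casp12 to Casp1. Over all mice that log2 ratio differed between the treatments by 0.65 (exact permutation p adjusted over 3 ratios 0.0455). Without SCI + Vehicle mouse 1 it differed by 0.51 (adjusted exact permutation p 0.0839).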

How the results depend on the processing

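Results that changed are given by setting. With a mean TPM above 1 required in every condition, 4 members remained in the test, and 0 were called in any comparison. Of the 12559 genes then tested, 2398 (vehicle) and 3710 (atorvastatin) were called against Uninjured Control and 13 between the treatments. Voom with group weights also called 0 members in each of the 3 comparisons, and 132, 145 and 8 of all 16091 genes. In SCI + Atorvastatin vs. Uninjured Control, DESeq2, all 3 groups in 1 fit and limma on log2(TPM + 1) each called 8 members in place of 5. Of all genes these called 7207 of 15922, 7126 of 16091 and 6316 of 16091, where the main fit called 6259. Between the treatments, all 3 groups in 1 fit and limma on log2(TPM + 1) called 0 in place of 1, and an unadjusted p below 0.05 with no fold limit called 3. Of all 16091 genes these called 1, 20 and 1132, where the main fit called 17. With each mouse left out in turn, 4 to 10 members were called with vehicle against Uninjured Control, 5 to 10 with atorvastatin, and 0 to 1 between the treatments. Of the 45 pathway genes, 7 (vehicle) and 9 (atorvastatin) were called in place of 16 and 20 with TPM above 1 in every condition, 0 and 0 with voom and group weights, and 15 to 28 and 17 to 33 with 1 mouse left out. The upper ends of these left-out ranges against Uninjured Control, for members and pathway genes, came from fits with a single control mouse. They are therefore no result about the members or the pathway. With 1 SCI mouse left out, 4 to 5 members were called with vehicle and 5 to 6 with atorvastatin. Of all 16091 genes, 3839 to 4804 and 5582 to 5776 were called in those fits. Between the treatments 2 pathway genes had an unadjusted p below 0.05. Of the 3 ratios, 1 passed an adjusted p of 0.05, 0 with TPM + 0.1, and 0 to 1 with 1 mouse left out. Of the members per microglia or macrophage count, 1 had an exact permutation p below 0.05, 3 when divided by the counts of all genes, and 1 to 2 with 1 mouse left out. Of the correlations, 0 passed adjustment, and 0 to 1 with 1 mouse left out. Apart from fewer genes or samples where the setting removes them, the cause was not tested.

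The replicate numbers 1 to 7 of the SCI groups did not pair the mice: deviations of same-numbered mice correlated at -0.15 to 0.087, and 0 of 7 correlated best with their own number. With the replicate number as a block, 0 members were called in each comparison, 0 pathway genes were called against Uninjured Control, and 0 ratios passed. Of all 16091 genes, 16 (vehicle) and 0 (atorvastatin) were called against Uninjured Control and 8 between the treatments. The 0 is therefore no result about the members. Casp12 had a log2 fold change of 0.61 between the treatments in that fit.

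Some signs turned, and all were of values that were not called. On log2(TPM + 1), Il18 against Uninjured Control was 1.06 with vehicle and 1.06 with atorvastatin, and between the treatments Il1a was 0.41 and Casp1 0.046. Without Uninjured Control mouse 2, Casp4 against the other control was -0.81 with vehicle and -0.47 with atorvastatin, and without mouse 1, when the remaining control was at 0, the fitted values were 9.44 and 9.83. The Casp4 to Casp1 ratio was -0.0393 with TPM + 0.1. Between the treatments, Casp1 ranged from -0.24 to 0.11 and Il1rn from -0.095 to 0.35 with 1 mouse left out. Per microglia or macrophage count, Casp4 ranged from -0.033 to 0.28 and Il1rn from -0.27 to 0.15 with 1 mouse left out, and Il1rn was 0.18 when divided by the counts of all genes.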
